A study of Acartia tonsa with 26 samples.

Results

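The HSP70 family genes described here are DN1373_c1_g1, DN2067_c0_g1 and DN1676_c1_g1, 3 of the 9502 genes that the authors listed as changing while eggs of a calanoid copepod, Acartia tonsa, developed. They were chosen by identifier, as HSP70 type matches that carry animal names. All 3 passed the filter on low values. Libraries of total RNA came from pooled eggs, 26 in all. Subitaneous eggs, which develop without a pause, were kept at 16.9 °C and sampled at 5 ages. The 3 h eggs had 4 to 16 cells and the 7 h eggs were in gastrulation (5 libraries each). At 14 h organs were forming and at 24 h appendages (4 libraries each), and 42 h eggs held nauplii about to hatch (5 libraries). Quiescent eggs were held at 4 °C without oxygen and sampled at 26 h, still in gastrulation (3 libraries). The adults that laid all of them lived in the dark in 60 L tanks at a salinity of 32. The replicates are described as technical, so p-values measure the spread between such samples and not between cultures.

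HSP70 proteins are chaperones that bind exposed hydrophobic stretches of other proteins and release them again, in a cycle driven by ATP. J-domain proteins bring clients and start ATP hydrolysis, HSP90 takes over some clients, and small heat shock proteins hold unfolding proteins until HSP70 can refold them. Cognate forms (HSC70) are made in unstressed cells, while inducible forms are known for their rise after heat, cold recovery or lack of oxygen. In dormant stages of crustaceans, chaperones are known as proteins stored or made during arrest.

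The identifiers carry names of the best protein matches, and all 3 genes carry the HSP70 domain. DN1373_c1_g1 matched HSP7D of the moth Manduca sexta, a cognate HSP70, and an HSP70 of the nematode Brugia malayi. DN2067_c0_g1 matched an HSP70 of the nematode Onchocerca volvulus and the same moth HSP7D. DN1676_c1_g1 matched HSP-1 of Caenorhabditis elegans and HSP7D of Drosophila melanogaster, both cognate forms, as well as HSP70 of a salmon and of Onchocerca. These matches name related proteins and do not say which A. tonsa gene is cognate or inducible. DN1676_c1_g1 shares its assembly cluster with 3 other HSP70 class genes, so reads of near copies may have been split between them and its values are uncertain to that extent.

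Values are the authors' normalized expression values, in which 1 stands for 81.8 to 112 reads depending on the library and is not divided by gene length. Levels are therefore compared between groups for 1 gene, never between genes. Reads per library ran from 343 to 2965 for DN1373_c1_g1, from 218 to 3005 for DN2067_c0_g1 and from 322 to 10856 for DN1676_c1_g1. The genes of the table took 4302937 to 24170776 reads per library. The library 42 h D stood apart from its group, and its rank correlation with their mean was 0.310, against 0.754 to 0.940 for every other library and its own group. Genes with a cuticle domain summed to 105 in 42 h D and to between 825 and 3328 in the other 42 h libraries, and linker histones to 49.8 against 1.19 to 24.9. Results that rest on 42 h are given with and without it. As a check of stage, linker histones summed to 389 to 489 at 3 h and 8.98 to 18.2 at 7 h, and 25 genes with a myosin head domain to between 357 and 790 at 24 h. In quiescent eggs those myosin genes summed to 113 to 151, between the lowest value at 3 h and the highest at 7 h.

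DN1676_c1_g1 rose, fell and rose again. It was low in cleavage and gastrulation, several times higher at organogenesis, low again while appendages formed and highest before hatching. At 3 h its values in libraries A to E were 5.24, 4.40, 4.40, 3.80 and 4.16, and at 7 h they were 4.01, 6.66, 5.13, 2.95 and 3.55. At 14 h they were 22.8, 21.3, 44.4 and 38.8 in A, B, C and E. Every 14 h library lay above every 7 h library, while 3 h and 7 h overlapped.

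From 3 h to 7 h the mean of DN1676_c1_g1 went from 4.40 ± 0.531 to 4.46 ± 1.47 (SD, n = 5 each). The log2 change was -0.0196 ± 0.350 (SE), with a limma adjusted p of 1. From 7 h to 14 h it rose 7.14-fold, to 31.8 ± 11.5 (SD, n = 4), a log2 change of 2.56 ± 0.37 on the log2(value + 1) scale (limma adjusted p = 1.2e-05). Of the 3 HSP70 genes, only DN1676_c1_g1 was called in this comparison, where 21.1% of all 5201 tested genes were called higher, 2.48% were called lower and 49.5% had every 14 h library above every 7 h library. The median of all tested genes moved by 0.41, and relative to it DN1676_c1_g1 rose by 2.15. In whole eggs, a change in the number of cells of a type and a change in RNA per cell cannot be told apart.

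At 24 h the values of DN1676_c1_g1 in A to D were 7.92, 5.07, 9.64 and 10.7. All of them lay below the lowest 14 h value. The mean fell to 8.33 ± 2.45 (SD, n = 4), a log2 change of -1.79 ± 0.39 (limma adjusted p = 0.00227), in a comparison where 9.61% of tested genes were called lower and 17.8% had every 24 h library below every 14 h library. This fall missed the threshold in letters C, D and E alone (-1.93, limma adjusted p = 0.135) and passed it in letters A and B alone (-1.65).

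At 42 h the values of DN1676_c1_g1 in A to E were 40.2, 79.2, 112, 35.8 and 112. Even the lowest, in 42 h D, was more than any value at 24 h, although libraries of the group differed 3.14-fold among themselves. The mean was 75.9 ± 37.1 (SD, n = 5), or 85.9 ± 34.2 (n = 4) without 42 h D. From 24 h to 42 h the gene rose 9.11-fold, a log2 change of 2.93 ± 0.37 (limma adjusted p = 2.4e-05). In this comparison 44.9% of tested genes were called higher, and 5.08% had every 42 h library above every 24 h library. The median gene moved by 0.66, and DN1676_c1_g1 by 2.27 relative to it. Within letters A and B the rise was 2.96, and within C, D and E it was 2.80.

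**Figure D1:**
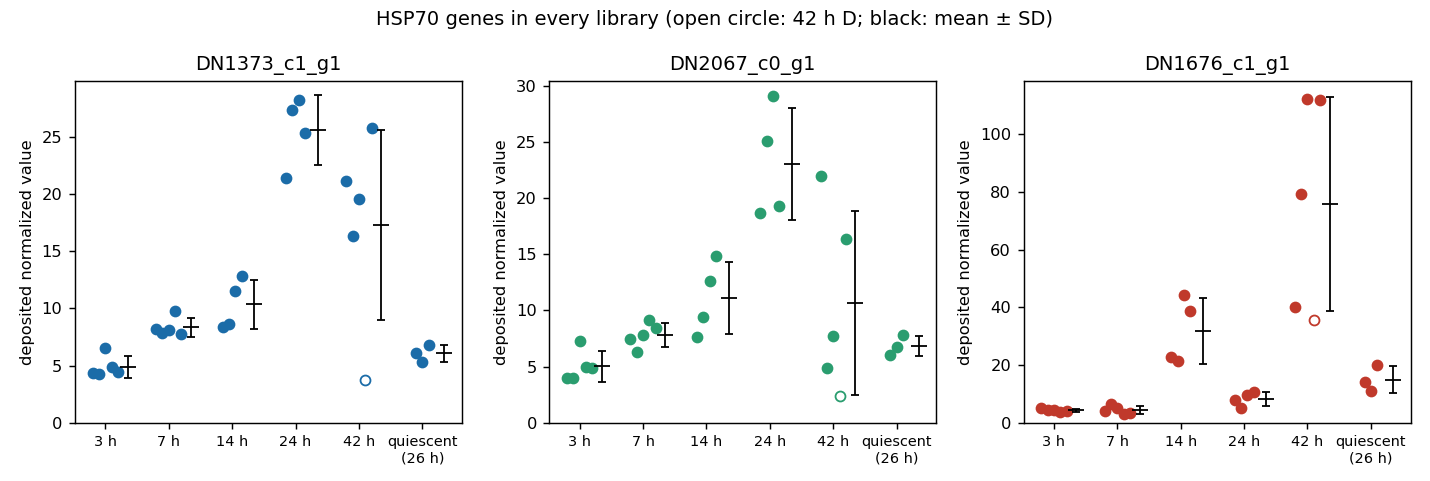
Deposited normalized value (linear axis, a separate scale for each gene) of the 3 HSP70 genes in each of the 26 libraries, by group, with the mean and SD in black and 42 h D as an open circle. DN1373_c1_g1 and DN2067_c0_g1 had their highest means at 24 h (25.6 and 23.0), and DN1676_c1_g1 at 42 h (75.9), with a lower peak at 14 h (31.8).

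DN1373_c1_g1 had means that were higher at each stage from 3 h to 24 h, and the step from 14 h to 24 h passed the test. At 3 h its values in A to E were 4.31, 4.23, 6.51, 4.86 and 4.48, and at 7 h 8.21, 7.87, 8.09, 9.82 and 7.77. Every 7 h library lay above every 3 h library, as in 3.75% of tested genes. The means were 4.88 ± 0.943 and 8.35 ± 0.838 (SD, n = 5 each), a 1.71-fold difference with a log2 change of 0.68 ± 0.34 that was not called (limma adjusted p = 0.348). It was called once 42 h D was left out of the fit, with the same change and a limma adjusted p of 0.00510. Of all tested genes, 0.0961% were called higher from 3 h to 7 h and 11.1% lower.

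At 14 h the values of DN1373_c1_g1 in A, B, C and E were 8.39, 8.64, 11.5 and 12.8, which overlapped with 7 h. The log2 change from 7 h was 0.26 ± 0.36 (limma adjusted p = 0.618), which is 0.15 less than the median gene moved. Its sign depended on scaling, and with median-ratio rescaling the change was -0.84 (limma adjusted p = 0.00887). At 24 h the values in A to D were 21.4, 27.4, 28.3 and 25.4, all above 14 h. The mean rose from 10.3 ± 2.18 to 25.6 ± 3.06 (SD, n = 4 each), a log2 change of 1.24 ± 0.38 (limma adjusted p = 0.0328), where 2.83% of tested genes were called higher and 13.2% had the groups apart in this direction. The call did not hold without any 1 of 14 h A, B and C and 24 h B, C and D, with log2 changes from 1.16 to 1.30 and limma adjusted p up to 0.0951. Within letters A and B the change was 1.41 (limma adjusted p = 0.0252) and within C, D and E 1.08 (limma adjusted p = 0.712). From 3 h to 24 h, over the whole course, the mean of DN1373_c1_g1 was 5.25-fold higher, a log2 change of 2.18 ± 0.36 (limma adjusted p = 3.2e-05), where 26.9% of tested genes were called higher.

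At 42 h the values of DN1373_c1_g1 in A to E were 21.1, 16.3, 19.6, 3.73 and 25.8. The 42 h D value was lower than any of the gene's other values, 3 h included, and the remaining 4 overlapped with 24 h. The mean was 17.3 ± 8.33 (SD, n = 5) with 42 h D and 20.7 ± 3.95 (n = 4) without it. The log2 change from 24 h was -0.74 ± 0.36 (limma adjusted p = 0.0943) and -0.30 without 42 h D (limma adjusted p = 0.164). It was called lower without 42 h E (-0.93, limma adjusted p = 0.0428), with median-ratio rescaling (-1.44, limma adjusted p = 6.23e-05), with edgeR and TMM (-1.63, adjusted p = 0.000270) and with DESeq2 (-1.58, adjusted p = 2.98e-11). The gene thus had a lower mean at 42 h while the median gene moved up, a difference of -1.40 from that median.

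DN2067_c0_g1 followed a like course up to 24 h and fell after it. At 3 h its values in A to E were 3.94, 4.01, 7.30, 4.93 and 4.92, and at 7 h 7.41, 6.32, 7.81, 9.15 and 8.43. The groups overlapped through 3 h C alone. The means were 5.02 ± 1.36 and 7.82 ± 1.07 (SD, n = 5 each), with a log2 change of 0.57 ± 0.38 (limma adjusted p = 0.644). At 14 h the values in A, B, C and E were 7.66, 9.43, 12.7 and 14.8. They overlapped with 7 h, and the log2 change of 0.43 ± 0.40 (limma adjusted p = 0.460) became -0.67 with median-ratio rescaling.

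At 24 h the values of DN2067_c0_g1 in A to D were 18.7, 25.1, 29.1 and 19.3, all above the 14 h libraries. The means were 11.1 ± 3.21 and 23.0 ± 4.95 (SD, n = 4 each), and the log2 change of 1.0 ± 0.42 was not called (limma adjusted p = 0.142). Without 42 h D in the fit it was called (limma adjusted p = 0.0184). At 42 h the values in A to E were 22.0, 4.88, 7.77, 2.37 and 16.3. Only 42 h A reached the range of 24 h, and the libraries differed 9.26-fold among themselves, or 4.50-fold without 42 h D. The mean fell to 10.7 ± 8.22 (SD, n = 5), or 12.7 ± 7.84 (n = 4) without 42 h D.

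The fall of DN2067_c0_g1 from 24 h to 42 h had a log2 change of -1.35 ± 0.40 (limma adjusted p = 0.00761) and of -0.98 without 42 h D (limma adjusted p = 0.00769). It was 1 of the 5.33% of tested genes called lower, and moved by -2.01 relative to the median gene. The call rests on the spread shared by all groups. When the spread was taken from the 2 compared groups alone, the limma adjusted p was 0.231, and within the letters the changes were -0.96 (A and B) and -1.63 (C, D and E), neither of them called.

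At 14 h, all 3 HSP70 genes had lower values in letters A and B than in C and E. A and B appear to come from another sequencing run than C, D and E, a split inferred from sheet numbers in the labels. The myosin head genes followed the same split, with sums of 200 and 256 in A and B and of 381 and 528 in C and E. The part of the run, or of this difference between libraries, in the values of the HSP70 genes was not tested. With the inferred run as a term in the fit, no call of the 3 genes changed in the 7 comparisons.

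**Figure D2:**
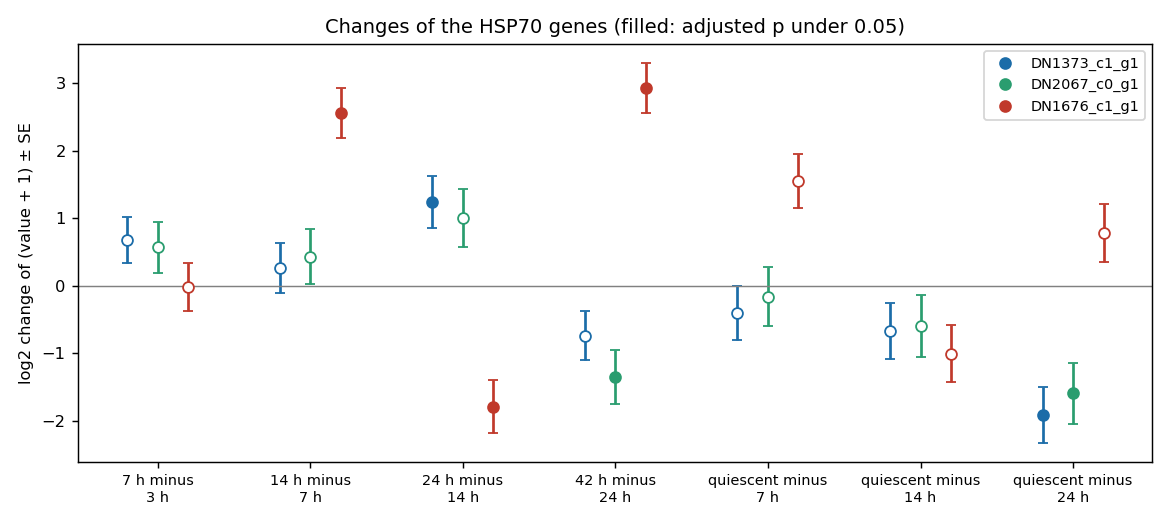
Log2 change of (value + 1), with its standard error, of each HSP70 gene between consecutive stages and between quiescent eggs and 3 stages, from limma over all 26 libraries; filled points had an adjusted p under 0.05. DN1676_c1_g1 had a change of the opposite sign from the other genes from 14 h to 24 h (-1.79) and from 24 h to 42 h (2.93).

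Quiescent eggs are labelled as being in gastrulation, so that 7 h eggs are the matching stage and 24 h eggs the nearest in time. Age, stage, cold and lack of oxygen differ together between quiescent and subitaneous eggs and cannot be told apart. DN1676_c1_g1 had values of 14.1, 10.9 and 19.9 in quiescent A, C and D. Each was above every 7 h and 24 h value and below every 14 h value, the last as in 51.4% of tested genes. The quiescent mean was 15 ± 4.53 (SD, n = 3), 3.36-fold that of 7 h eggs.

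The log2 change of DN1676_c1_g1 from 7 h eggs to quiescent eggs was 1.55 ± 0.40 and was not called (limma adjusted p = 0.0960). In this comparison 0.288% of tested genes were called higher and 0% lower (11 genes were lower with edgeR and TMM), and 17.7% had every quiescent library above every 7 h library. Just 1.35% of tested genes had a larger rise. The difference was called with edgeR on recovered reads (1.65, adjusted p = 0.0467 with TMM scaling), with DESeq2 (1.59, adjusted p = 0.0116) and with limma without 42 h D (1.55, adjusted p = 0.00465). Against 3 h eggs the gene was 3.40-fold higher (1.53 ± 0.40, limma adjusted p = 0.0160), where 0.442% of tested genes were called higher. DN1676_c1_g1 alone of the 3 genes is also in the authors' table of genes selected for quiescent eggs against 7 h and 14 h, so its differences there are not independent evidence.

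Against 14 h eggs, DN1676_c1_g1 had a log2 change of -1.01 ± 0.42 (limma adjusted p = 0.105), in a comparison where the median gene moved by -0.41. Against 24 h eggs it was 1.8-fold higher, with a log2 change of 0.78 ± 0.42 (limma adjusted p = 0.192). Every quiescent library was above every 24 h library, as in 11.8% of tested genes. With median-ratio rescaling this difference was 1.87 (limma adjusted p = 0.00443), while the difference from 14 h shrank to 0.0052.

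DN1373_c1_g1 had values of 6.07, 5.31 and 6.82 in quiescent A, C and D, and DN2067_c0_g1 had 6.07, 6.71 and 7.82. Those of DN1373_c1_g1 were below every 7 h value, as in 5% of tested genes, whereas those of DN2067_c0_g1 overlapped with 7 h. The quiescent means were 6.07 ± 0.758 and 6.86 ± 0.886 (SD, n = 3 each), and the log2 changes from 7 h were -0.41 ± 0.40 and -0.16 ± 0.44 (limma adjusted p = 1 for both). Against 14 h eggs the log2 changes were -0.67 ± 0.41 (limma adjusted p = 0.286) for DN1373_c1_g1 and -0.59 ± 0.46 (limma adjusted p = 0.387) for DN2067_c0_g1. Both had the opposite sign after median-ratio rescaling (0.28 and 0.36). None of the 3 HSP70 genes was called against 14 h eggs, where 5.08% of tested genes were called higher and 11.9% lower. At an unadjusted p under 0.05 there was 1, DN1676_c1_g1, and neither edgeR with TMM nor DESeq2 called any. Without 42 h D in the fit, limma called DN1373_c1_g1 (-0.67, adjusted p = 0.0136) and DN1676_c1_g1 (-1.01, adjusted p = 0.0219) lower, and with the spread of the 2 groups alone limma called the same genes (adjusted p = 0.0462 and 0.0387).

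Compared with 24 h eggs, both genes were lower in quiescent eggs, with every quiescent library below every 24 h library, as in 39.7% of tested genes. DN1373_c1_g1 was 4.22-fold lower, with a log2 change of -1.91 ± 0.41 (limma adjusted p = 0.00270). DN2067_c0_g1 was 3.36-fold lower, with a log2 change of -1.60 ± 0.46 (limma adjusted p = 0.0143). In all, 15.3% of tested genes were called lower, 8.04% were called higher, and the median gene moved by -0.31. The differences shrank with median-ratio rescaling, to -0.81 for DN1373_c1_g1 (limma adjusted p = 0.0311) and -0.49 for DN2067_c0_g1 (limma adjusted p = 0.346). With edgeR and TMM neither was called, at -0.92 for DN1373_c1_g1 (adjusted p = 0.0585) and -0.59 for DN2067_c0_g1 (adjusted p = 0.387). Letters A and B hold quiescent A as the only quiescent library. Their differences were -1.84 for DN1373_c1_g1 and -1.68 for DN2067_c0_g1. Within C, D and E, with libraries C and D on either side, they were -1.98 and -1.58. Neither was called (limma adjusted p = 0.237 and 0.314). Comparisons that share the quiescent libraries are not independent of each other.

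Ranked by group mean, DN1373_c1_g1 ran from 3 h through quiescent, 7 h, 14 h and 42 h to 24 h. None of its 5 neighbouring pairs was called, and only quiescent and 7 h did not overlap. DN2067_c0_g1 ran from 3 h through quiescent, 7 h, 42 h and 14 h to 24 h. Again no neighbouring pair was called, and only 14 h and 24 h lay apart. DN1676_c1_g1 ran from 3 h through 7 h, 24 h, quiescent and 14 h to 42 h. Its step from 14 h to 42 h was called (1.14 ± 0.37, limma adjusted p = 0.0139), as in 44.6% of tested genes, although the libraries overlapped. In that order 24 h, quiescent and 14 h lay apart without a call.

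The difference between a pair of these genes within the same library does not depend on how libraries were scaled, apart from the pseudocount. Its level carries the unknown lengths of the genes, so that only its change between groups is read. The log2 difference DN1676_c1_g1 minus DN1373_c1_g1 was -0.81 ± 0.46 (SD) in 7 h libraries and 1.48 ± 0.28 at 14 h. It was -1.55 ± 0.47 at 24 h, 2.12 ± 0.76 in nauplii at 42 h, and 1.14 ± 0.25 in quiescent eggs. From each of these stages to the next the libraries did not overlap, and 42 h D (2.96) was the highest of its group rather than the lowest.

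The change in that difference was 2.30 from 7 h to 14 h, -3.03 from 14 h to 24 h and 3.67 from 24 h to 42 h. From 7 h to quiescent eggs it was 1.96, and from 24 h to quiescent eggs 2.69. Against DN2067_c0_g1 the corresponding changes were 2.13, -2.79, 4.28, 1.71 and 2.38, and again no libraries overlapped. Each of these 10 reached the smallest p that an exact two-sided permutation test allows, 0.0159 for 5 against 4 libraries, 0.0286 for 4 against 4, 0.0357 for 3 against 5 and 0.0571 for 3 against 4. Adjusted by Benjamini-Hochberg over all 21 such tests, none passed, the smallest adjusted p being 0.0833. DN1373_c1_g1 minus DN2067_c0_g1 overlapped in every one of the 7 comparisons, with changes between -0.32 and 0.61. From 24 h to 42 h its change was 0.61 (exact permutation p = 0.111).

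**Figure D3:**
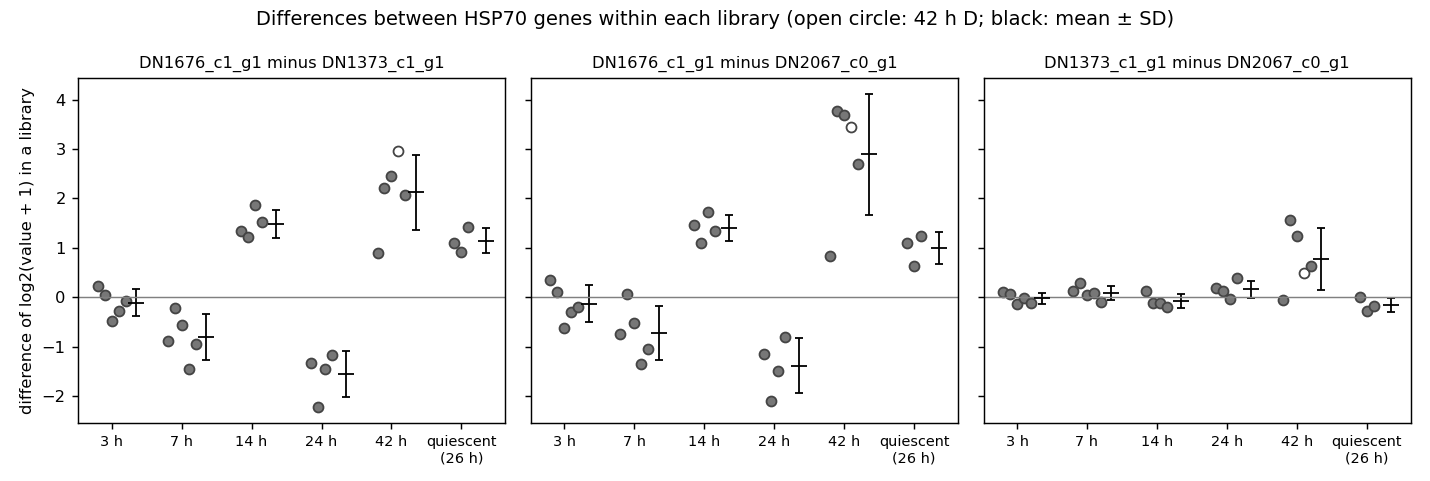
Difference in log2(value + 1) between each pair of HSP70 genes within a library, by group, with the mean and SD in black and 42 h D as an open circle. Differences with DN1676_c1_g1 alternate between groups without overlap from 7 h to 42 h, while DN1373_c1_g1 minus DN2067_c0_g1 stayed between -0.29 and 0.38 outside 42 h.

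The table holds 40 other genes of the HSP70 class, 23 of which passed the filter. The first match was an animal protein for 15 of the 23 and a protein of another organism for 8. All 23 had their highest mean at 42 h, as DN1676_c1_g1 and 65.4% of all tested genes did. DN1373_c1_g1 and DN2067_c0_g1 had theirs at 24 h, as 10.7% of tested genes did. Some of the 23 passed the filter only through 42 h libraries, so their peak and rise there follow from the filter and are not evidence. In DN154300_c0_g1 (highest 1.07 at 24 h) and DN32559_c0_g1 (highest 1.02 at 14 h), too few libraries outside 42 h reached 1 to pass. Outside 42 h the highest value was 0.308 for DN143449_c0_g1, 0.444 for DN113836_c0_g1, 0.438 for DN33554_c2_g1 and 0.246 for DN146657_c0_g1. From 24 h to 42 h, 21 of 23 rose and none fell, where 44.9% of tested genes rose, with a median log2 change of 1.60 against 0.66 for all tested genes. Both this count and this median include the genes that passed only through 42 h libraries. The count was 13 with median-ratio rescaling, 9 with edgeR and TMM, and 23 without 42 h D. Over all tested genes these settings called 1298, 882 and 3252 higher in turn. When the spread came from the compared groups alone the count was 2, where 177 of all tested genes were called higher. From 7 h to 14 h, 8 of 23 rose, where 21.1% of tested genes rose, with a median change of 0.56 against 0.41. Without 42 h D, 13 rose, where 2132 of all tested genes rose.

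From 14 h to 24 h, where DN1676_c1_g1 fell, limma called 9.61% of tested genes lower. Of the 23 it called 1 lower, DN2709_c2_g2, which matched an HSP70 of the tapeworm Echinococcus granulosus. Its mean went from 2.59 ± 1.08 at 7 h (SD, n = 5) to 19.6 ± 10.7 at 14 h (n = 4), 4.77 ± 1.52 at 24 h (n = 4) and 34.2 ± 12.8 at 42 h (n = 5). The log2 changes were 2.44 ± 0.35, -1.74 ± 0.37 and 2.58 ± 0.35 in turn, with limma adjusted p of 1.2e-05, 0.00188 and 5.0e-05. In quiescent eggs its mean was 9.20 ± 2.72 (SD, n = 3). The difference from 7 h eggs was 1.53 ± 0.39 (limma adjusted p = 0.0875), close in size to that of DN1676_c1_g1. Lower means at 24 h than at 14 h, without a call, were also seen in others of the 23. Among them were DN5898_c0_g1 (16.4 to 8.95), DN6100_c0_g1 (44.0 to 26.8) and DN76481_c0_g1 (2.07 to 0.602). In that step 13 of the 23 had a positive change. With no filter, 5 of the 40 were called lower, where 882 of all genes were.

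The assembly cluster of DN1676_c1_g1 holds DN1676_c0_g1, DN1676_c0_g2 and DN1676_c2_g1. All 3 rose from 24 h to 42 h, with log2 changes of 1.60, 1.44 and 2.26. From 14 h to 24 h, where DN1676_c1_g1 fell, their changes were 0.64, 0.98 and -0.45 and none was called. DN1676_c2_g1 was the 1 of them that rose from 7 h to 14 h, from 7.23 ± 2.06 (SD, n = 5) to 28.3 ± 17.9 (n = 4), with a log2 change of 1.67 ± 0.41 (limma adjusted p = 0.00380). Whether their changes differed from those of DN1676_c1_g1 was not tested.

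Further HSP70 class genes named by their adjusted p were DN5898_c0_g1 and DN1118_c0_g1, both with matches to insect cognate HSP70. DN5898_c0_g1 rose from 3.58 ± 1.30 at 7 h (SD, n = 5) to 16.4 ± 8.16 at 14 h (n = 4), with a log2 change of 1.87. DN1118_c0_g1 rose from 9.69 ± 2.53 at 24 h (SD, n = 4) to 67.0 ± 33.1 at 42 h (n = 5), with a log2 change of 2.50. None of the 23 was called with limma between quiescent eggs and 7 h or 24 h eggs. Against 7 h, limma called 0.288% of tested genes higher and 0% lower, and against 24 h 8.04% higher and 15.3% lower. At an unadjusted p under 0.05, 5 of the 23 were higher than at 7 h, and 1 was higher and 1 lower than at 24 h. In either direction, 359 and 1845 of all tested genes had such a p. With edgeR and TMM, 2 were called higher against each stage, where 195 and 388 of all tested genes were. With DESeq2 the counts were 5 and 4, where 365 and 604 of all tested genes were called higher. DESeq2 called 2 lower than at 24 h, where 679 of all tested genes were. Against 14 h, limma called 5.08% of tested genes higher and 11.9% lower. DN5898_c5_g1, whose first match was a plant HSP70, was the 1 of the 23 called, lower by 2.03-fold on the log2(value + 1) scale. It was at 0.0860 ± 0.0562 in quiescent eggs (SD, n = 3). RNA of food or of other organisms on the eggs was not tested as a source of such genes.

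**Figure D4:**
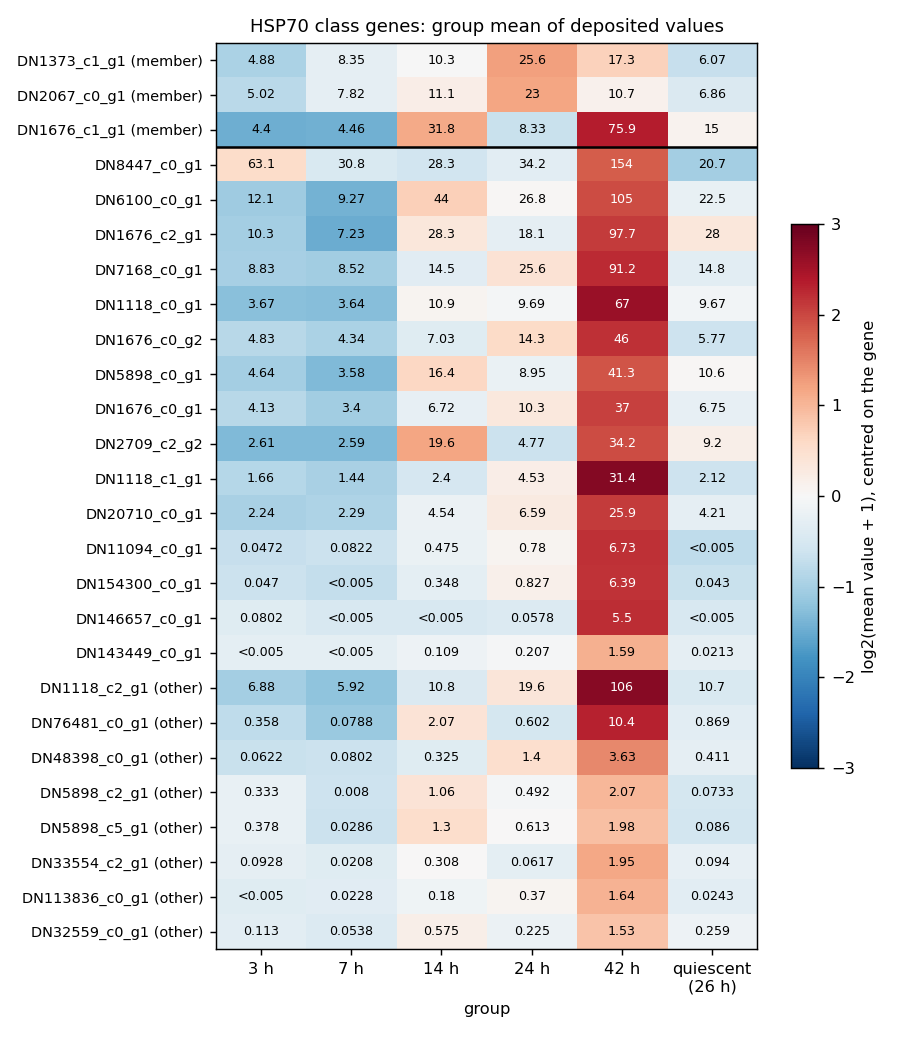
Group mean of the deposited values (printed in each cell) for the 3 HSP70 genes and the 23 other HSP70 class genes that passed the filter, coloured by log2(mean + 1) centred on each gene; "other" marks a first match outside animals. All 23 had their highest mean at 42 h, and DN1373_c1_g1 and DN2067_c0_g1 at 24 h. Some of the 23 passed the filter only through 42 h libraries.

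The genes that work with HSP70 were counted from lists of J-domain proteins, HSP90, chaperonins, small heat shock proteins and chaperones of the endoplasmic reticulum. They hold 20 tested genes. The first match was an animal protein for 3 of 3 J-domain proteins, 0 of 2 HSP90 genes and 1 of 5 genes on the chaperonin list. It was for 8 of 9 small heat shock proteins and 0 of 1 endoplasmic reticulum chaperones. RNA of other organisms was not tested as a source. No gene of the table was caught by the list of HSP70 cofactors, and neither of the 2 heat shock factor matches passed the filter. From 3 h to 7 h, 3 of 20 fell and none rose, where 11.1% of tested genes fell. From 7 h to 14 h, 5 of 20 rose and none fell, where 21.1% of tested genes rose. From 14 h to 24 h, 3 fell and none rose, where 9.61% of tested genes fell. From 24 h to 42 h, 11 rose and none fell, where 44.9% of tested genes rose. Some of the 11 passed the filter only through 42 h libraries, so their rise there follows from the filter and is not evidence. Without 42 h D the 14 h and 42 h rises came to 10 and 16, where 2132 and 3252 of all tested genes rose. With median-ratio rescaling they came to 5 and 6, where 1174 and 1298 rose. In quiescent eggs, 2 were called higher than at 7 h and none lower, where 0.288% of tested genes were called higher. Against 14 h, none was called higher and 1 lower, where 5.08% of tested genes were called higher and 11.9% lower. Against 24 h, 4 were called higher and none lower, where 8.04% of tested genes were called higher and 15.3% lower. DESeq2 called 7 of the 20 lower than at 24 h and edgeR with TMM called 5, where they called 679 and 282 of the 5201 tested genes lower. Each called 5 of the 20 higher, where DESeq2 called 604 of all tested genes higher and edgeR with TMM 388. The median log2 change of the 20 from 24 h to quiescent eggs was -0.36, against -0.31 for all tested genes. The median log2 change of the 20 was 0.49 from 7 h to 14 h, against 0.41 for all tested genes, and 0.76 from 24 h to 42 h, against 0.66.

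Small heat shock proteins act without ATP. They were all 3 of the partner genes that fell from 14 h to 24 h and 3 of the 5 that rose to 14 h. DN3843_c0_g1 rose from 0.592 ± 0.441 at 7 h (SD, n = 5) to 13.2 ± 6.31 at 14 h (n = 4), fell to 0.457 ± 0.338 at 24 h (n = 4) and rose to 6.28 ± 2.48 at 42 h (n = 5). It was at 6.04 ± 2.82 in quiescent eggs (SD, n = 3), above 7 h by 2.11 ± 0.36 (limma adjusted p = 0.00797) and above 24 h by 2.22 ± 0.38. DN12651_c0_g1, a match to the small heat shock protein l(2)efl of Drosophila, rose by 1.44 from 7 h to 14 h and fell by 1.50 to 24 h. It was lower in quiescent eggs than at 14 h by 0.86 on the log2 scale. DN1337_c0_g1, an HSP27 match, rose by 2.80 from 24 h to 42 h and was higher in quiescent eggs than at 7 h (1.78 ± 0.39, limma adjusted p = 0.0392) and at 24 h (1.45 ± 0.41). In 3 h eggs, DN21453_c0_g1 and DN55100_c0_g1 were highest, and both fell to 7 h, by 0.85 and 0.78.

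J-domain proteins rose in 1 of 3 tested genes from 7 h to 14 h, which was DN3231_c0_g1 (0.50), where 21.1% of tested genes rose. From 24 h to 42 h they rose in 3 of 3, where 44.9% of tested genes rose. DN3231_c0_g1 rose by 0.84 in that step and DN1479_c0_g1 from 5.66 ± 0.965 (SD, n = 4) to 25.2 ± 11.4 (n = 5). Of the HSP90 class, which has 2 tested genes, both with first matches outside animals, DN32209_c0_g1 rose by 0.83 from 7 h to 14 h and DN46485_c0_g1 by 1.05 from 24 h to 42 h. Chaperonins fold proteins within a closed ring. Their list also holds a prefoldin match, DN138755_c0_g1, and the CH10 matches DN104973_c0_g1 and DN135181_c0_g1. Of its 5 tested genes, 2 rose from 24 h to 42 h, where 44.9% of all tested genes rose. These were DN78540_c0_g1, by 0.92, and DN51340_c0_g1, by 1.09. Both have first matches outside animals. The 1 tested chaperone of the endoplasmic reticulum, the calreticulin match DN25441_c0_g1, rose by 0.71 in the same step. Its first match is also outside animals. These genes had low values, with means of up to 2.59 at 42 h for the last 4 named. Outside 42 h the highest value was 0.489 for DN46485_c0_g1, 0.222 for DN78540_c0_g1, 0.739 for DN51340_c0_g1 and 0.393 for DN25441_c0_g1. Those 4 passed the filter only through 42 h libraries, so their rise there is not evidence. The same holds for the J-domain genes DN3231_c0_g1 and DN5746_c0_g1, with highest values of 0.859 and 0.863 outside 42 h.

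The named genes most like each HSP70 gene were found by Pearson correlation of log2(value + 1) over all 26 libraries, among 1801 tested genes with a protein match. The libraries share their scaling and their stages, so r describes the course over these groups. DN1373_c1_g1 was most like DN3060_c0_g1, a match to nesprin-1 (SYNE1), which links nuclei to actin (r = 0.982). Next were a muscle myosin heavy chain match, DN3917_c1_g1 (r = 0.981), and a troponin I match, DN2350_c0_g1 (r = 0.974), a protein that holds muscle contraction in check. DN2067_c0_g1 was most like DN2110_c0_g1, a match to adenylate kinase 1, which balances adenine nucleotides (r = 0.975). It was followed by the myosin heavy chain matches DN10619_c0_g1 (r = 0.974) and DN9225_c0_g1 (r = 0.972).

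DN1676_c1_g1 was most like DN2709_c2_g2, the HSP70 class gene described above (r = 0.987). Then came DN1337_c0_g1, the HSP27 match (r = 0.959), and DN2357_c0_g1, a match to SARAF, which limits calcium entry into cells (r = 0.956). Without 42 h D, over 25 libraries, these 9 values lay between 0.958 and 0.987. Between the genes themselves, r was 0.870 for DN1373_c1_g1 with DN2067_c0_g1, 0.406 for DN1373_c1_g1 with DN1676_c1_g1 and 0.137 for DN1676_c1_g1 with DN2067_c0_g1.

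Among the 42 h libraries, DN2067_c0_g1 was in the same order as the summed value of the 25 genes with a myosin head domain. Those sums were 608 in A, 340 in E, 211 in C, 63.6 in B and 34.0 in D. DN1676_c1_g1 was in the same order as the summed value of 37 genes with a cuticle protein domain (Chitin_bind_4), which came to 3328 in C, 2336 in E, 1469 in B, 825 in A and 105 in D. Both orders were noticed after the values were seen. DN1373_c1_g1 followed neither order, with 25.8 in E, 21.1 in A, 19.6 in C, 16.3 in B and 3.73 in D. The 42 h libraries thus differed both in late embryonic genes and in the HSP70 genes. The part of the former in the latter was not tested.

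**Figure D5:**
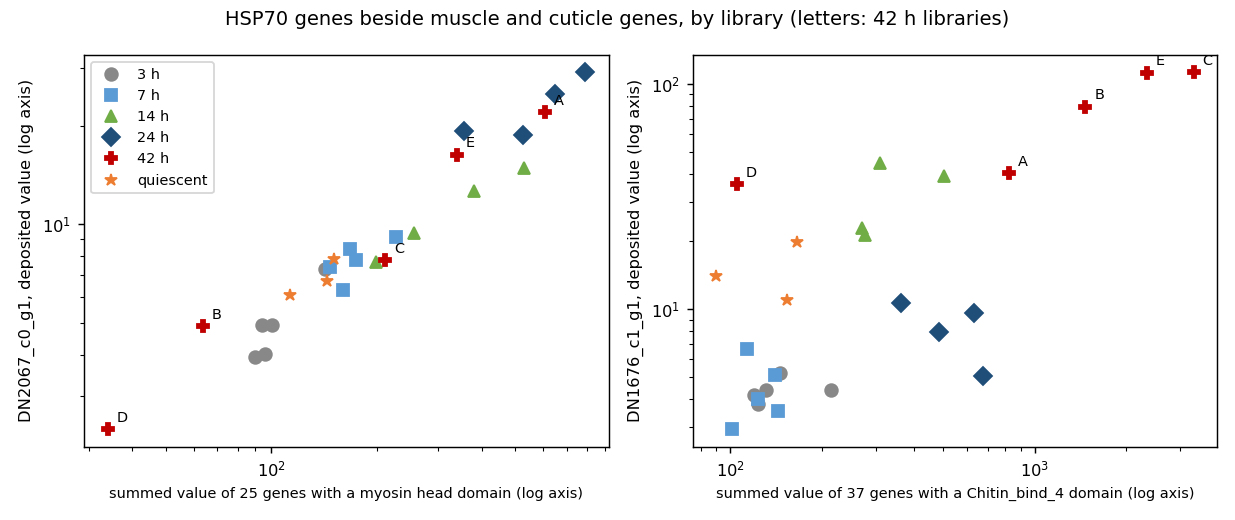
Left, DN2067_c0_g1 against the summed value of 25 myosin head genes; right, DN1676_c1_g1 against the summed value of 37 cuticle genes, 1 point per library on log axes, with the 42 h libraries lettered. At 42 h, library A had the highest myosin sum (608) and the highest DN2067_c0_g1 value (22.0), and D the lowest of both.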

How the data were processed

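Egg libraries were made with TruSeq from 0.3 µg of RNA, per the labels. The authors deposited a normalized signal value per library for genes of a de novo assembly, selected among subitaneous samples (alpha 0.001, fold change 2), so stage comparisons are not independent evidence. Quiescent libraries had no part in that selection. Another table, of 2777 genes selected on quiescent against 7 h and 14 h eggs, shares 2689 genes with identical values. The submitters' processing notes name bcl2fastq and edgeR. The aligner, the counter, their versions and the scaling are not stated in what was used here. Values of up to 2000 reads were whole reads within 0.1 in 100% of cases, so reads were recovered for the count tests.

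A gene was tested (5201 were) if 3 or more libraries had a value of 1 or more. The test was limma 3.58.1 in R 4.3.3 on log2(value + 1), with all 26 libraries in 6 groups and eBayes (trend, robust). Adjustment was by Benjamini-Hochberg over all tested genes, with calls under 0.05. Fold values are ratios of group means unless stated, and log2 changes understate low genes. Differences between genes within libraries had exact two-sided permutation tests (scipy 1.17.1). Alternatives were edgeR 4.0.16, DESeq2 1.42.0, rescaling, a pseudocount of 0.1, no filter, other spreads, runs and left-out libraries. Only edgeR with the deposited scaling was added after seeing the data. The code was tested on simulated data.

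The genes and lists were chosen with earlier results of these data known. Named from each list and comparison were at most 2 called genes per direction, with the smallest adjusted p, and for each HSP70 gene the 3 most like it. Name patterns caught 7 genes in error, which were left out after reading their matches.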

Additional observations from a re-analysis of the deposited data

Results flagged for a closer look

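The value of DN1373_c1_g1 in 3 h C, 6.51, stood apart from the other 3 h libraries, which ran from 4.23 to 4.86. In 7 h D it was 9.82, above the other 7 h libraries at 7.77 to 8.21. Both gaps were larger than Dixon's 95% critical value for groups of this size. They were 2 of 15 groups tested, and chance alone gives about 1 in 20.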

How the results depend on the processing

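Of the calls of the 3 HSP70 genes, the rises of DN1676_c1_g1 to 14 h and to 42 h passed the threshold in every alternative run. In log2 changes, the rise of DN1373_c1_g1 from 14 h to 24 h was no longer called with a pseudocount of 0.1 (1.31, limma adjusted p = 0.0562).

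Settings that rescale libraries moved most. From 3 h to 7 h, DN1373_c1_g1 became called with median-ratio rescaling (0.78), quantile normalization (1.14), edgeR with TMM (0.76), DESeq2 (0.86) and the spread of 2 groups alone (0.68). DN2067_c0_g1 did so with quantile normalization (1.04) and the 2 groups alone (0.57). DN1676_c1_g1 changed sign with median-ratio (0.032), quantile (0.46), DESeq2 (0.085), edgeR with deposited scaling (0.018) and letters A and B alone (0.093). From 7 h to 14 h, DN1373_c1_g1 and DN2067_c0_g1 turned negative with median-ratio (-0.84 and -0.67), quantile (-0.53 and -0.36), edgeR with TMM (-1.05 and -0.86) and DESeq2 (-0.93 and -0.74). From 14 h to 24 h, DN2067_c0_g1 was called with DESeq2 (0.97) and the 2 groups alone (1.0). In letters C, D and E alone, DN1373_c1_g1 (1.08) and DN1676_c1_g1 (-1.93) were not called. From 24 h to 42 h, DN1373_c1_g1 was called lower with median-ratio (-1.44), quantile (-1.52), edgeR with TMM (-1.63) and DESeq2 (-1.58). DN2067_c0_g1 was not called with the 2 groups alone (-1.35), letters A and B (-0.96) or C, D and E (-1.63).

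For quiescent eggs, DN1676_c1_g1 against 7 h became called with edgeR (1.65 with TMM, 1.75 with deposited scaling), DESeq2 (1.59) and the 2 groups alone (1.55). Against 14 h, DN1373_c1_g1, DN2067_c0_g1 and DN1676_c1_g1 changed sign with median-ratio (0.28, 0.36, 0.0052), edgeR with TMM (0.50, 0.57, 0.18) and DESeq2 (0.32, 0.39, 0.0059). With the 2 groups alone, DN1373_c1_g1 (-0.67) and DN1676_c1_g1 (-1.01) were called. Against 24 h, DN2067_c0_g1 was not called with median-ratio (-0.49), quantile (-1.10), edgeR with TMM (-0.59), DESeq2 (-0.58) or C, D and E (-1.58). In A and B, where quiescent A is the only quiescent library, its change was -1.68. DN1373_c1_g1 was not called with edgeR and TMM (-0.92) or C, D and E (-1.98). DN1676_c1_g1 became called with median-ratio (1.87), quantile (1.37), edgeR with TMM (1.98) and DESeq2 (1.98). The partner genes DN3231_c0_g1 to 14 h (-0.068) and DN25441_c0_g1 to 42 h (-0.044) changed sign with quantile normalization. The cause was not tested.

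Leaving out 1 library at a time, DN1373_c1_g1 ranged from 0.63 to 0.77 (7 h minus 3 h), 1.16 to 1.34 (24 h minus 14 h), -0.93 to -0.30 (42 h minus 24 h) and -0.75 to -0.57 (quiescent minus 14 h). DN2067_c0_g1 ranged from 0.85 to 1.14 (24 h minus 14 h) and -1.68 to -1.48 (quiescent minus 24 h). DN1676_c1_g1 ranged from -0.15 to 0.087 (7 h minus 3 h), 1.34 to 1.74 (quiescent minus 7 h) and -1.22 to -0.82 (quiescent minus 14 h). Without quiescent A, DN2067_c0_g1 against 24 h was -1.52 (limma adjusted p = 0.0549).

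With the replicate letter as a block, no call of the 3 genes changed; DN1676_c1_g1 rose by 2.52 to 14 h. Letters deviated together (r over 0.1) in 24 of 56 same-letter pairs, with a median r of 0.0759.

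Counts over the table moved too. With edgeR and TMM, 47 genes were higher and 833 lower from 3 h to 7 h (5 and 579 with limma), 1117 and 291 to 14 h (1095 and 129), 456 and 482 to 24 h (147 and 500) and 882 and 618 to 42 h (2337 and 277). In quiescent eggs they were 195 and 11 against 7 h (15 and 0), 26 and 32 against 14 h (264 and 617) and 388 and 282 against 24 h (418 and 795). The other HSP70 class genes that rose at 14 h came to 5 with edgeR and TMM and 17 with the 2 groups alone (8 with limma). In these settings 1117 and 3106 of all tested genes rose. At 42 h they came to 11 with DESeq2 (21 with limma), where 1307 of all tested genes rose.

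The deposited values rest on selected genes, and rescalings from them take most as unchanged, moving the median gene by -0.41 (7 h to 14 h), -0.63 (24 h to 42 h) and 0.42 (14 h to quiescent) with median ratios. Each of the 3 genes had at least 218 reads in a library, and the effect of depth was not tested.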
